A study of Mus musculus with 6 samples.

Results

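Albumin (Alb), transthyretin (Ttr), transferrin (Trf), apolipoproteins A-I, E, H, B and M (Apoa1, Apoe, Apoh, Apob and Apom), microsomal triglyceride transfer protein (Mttp) and clusterin (Clu) are 10 genes of the secretory programme of the hepatocyte. They were looked up by gene symbol among the 25330 genes of the AML12 dataset, and all 10 were found. The genes were picked with earlier results of the same libraries known, and were selected on their library-scaled counts in control and hypoxia-reoxygenation libraries, among them the lower levels of Alb and Ttr after treatment, and the extra liver transcripts of control replicate 1. Their fold changes in this contrast are therefore given as a description, with standard errors but without p values.

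AML12 is a hepatocyte line established from mice that carried a transgene for human transforming growth factor alpha, and the labels give all 6 samples as wild type. The 3 control libraries came from cells kept at 21% oxygen in a growth medium with serum, an ITS supplement and dexamethasone. The 3 H/R libraries (hypoxia-reoxygenation, H6R2 in the labels) came from cells held for 6 h at 1% oxygen in medium that lacked serum and glucose and then reoxygenated for 2 h. Oxygen and medium changed together between the groups, so their effects cannot be told apart, and the labels do not say whether replicates were separate cultures. If they were not, the errors and p values cover technical spread only.

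Hepatocytes release most of the protein of blood plasma. Albumin carries fatty acids and hormones, transthyretin carries thyroxine and retinol-binding protein, and transferrin carries iron. Apolipoproteins are the protein part of lipoproteins. Apolipoprotein B forms the scaffold of very low density lipoprotein, which the transfer protein encoded by Mttp loads with lipid in the endoplasmic reticulum, whereas apolipoprotein A-I is the main protein of high density lipoprotein. Transcription of many of these genes in liver depends on HNF4A, FOXA and C/EBP factors.

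Total counts lay between 21026650 and 21854790 in the control libraries and between 20438746 and 21742441 in the H/R libraries. Counts were scaled with TMM factors to a normalized count per library, and fold changes came from edgeR's quasi-likelihood fit over the 14020 genes with enough counts to be tested. A gene was called when its Benjamini-Hochberg adjusted p was under 0.05 and its fold change was at least 2. Of the hepatocyte markers checked, 14 of 15 had more than 3 counts in some library, but Asgr1 had at most 1, and Serpina1a, Cps1 and Cyp2e1 exceeded 1 count in control replicate 1 alone. The marker list includes Alb, Ttr, Trf, Apoa1, Apob and Apoh, which are genes of this report, so their counts are no independent check of the cell type. The biliary keratin genes Krt7 and Krt19 were abundant in every library, with at least 9261 and 18321 counts. The summed count of the 15 hepatocyte markers was between 87209 and 95797 in control and between 125516 and 133640 in H/R cells, and Krt8 and Krt18 gave most of it. The summed count of the 8 biliary markers was between 36519 and 41241 in control and between 56882 and 61338 in H/R cells, with 1 of the 8 (Cftr) at 3 counts or fewer in every library, and the part of these differences in the results was not tested. The biliary genes did not all go one way, with log2 fold changes of 1.00 for Krt19 and -0.57 for Spp1. Sums of the 9 endothelial markers did not exceed 17 counts, and those of the 10 stellate cell and fibroblast markers did not exceed 35. Of the 9 macrophage and blood cell markers 6 stayed at 3 counts or fewer in every library, among them Adgre1, Clec4f and Ptprc, while the sum of the list went from between 66 and 78 to between 175 and 223. The markers above 3 counts were Cd68, Csf1r and Hba-a1. Cd68 had 16, 22 and 22 counts in control and 123, 113 and 137 in H/R libraries. Csf1r had 57, 48 and 42 against 68, 60 and 79, and Hba-a1 had at most 5.

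Control replicate 1 stood apart. For 59 genes it had at least 10 counts where no other library exceeded 2, and the same definition applied to any other library gave between 0 and 2 genes. Among the lists of this report, 13 of 47 liver metabolic genes, 18 of 93 other plasma protein genes and 4 of 9 other apolipoprotein genes were of this kind. The metabolic genes with the most counts there were Bhmt (55), Fabp1 (46), Cyp2e1 (45) and Pck1 (28), and the plasma protein genes were Serpina1a (61), Fga (61), Pzp (57), Fgb (52) and Mug1 (50). It also had 131335 counts of the ribosomal RNA gene Rn18s-rs5, against 28347 to 43775 in the other 5 libraries, and the part of this difference in the results was not tested. The 9 tested genes and the lists are therefore given below with and without this library. Among the other tested genes named with an adjusted p, Ankrd17 and Apon missed the threshold without it, and all the others passed in the same direction.

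**Figure D1:**
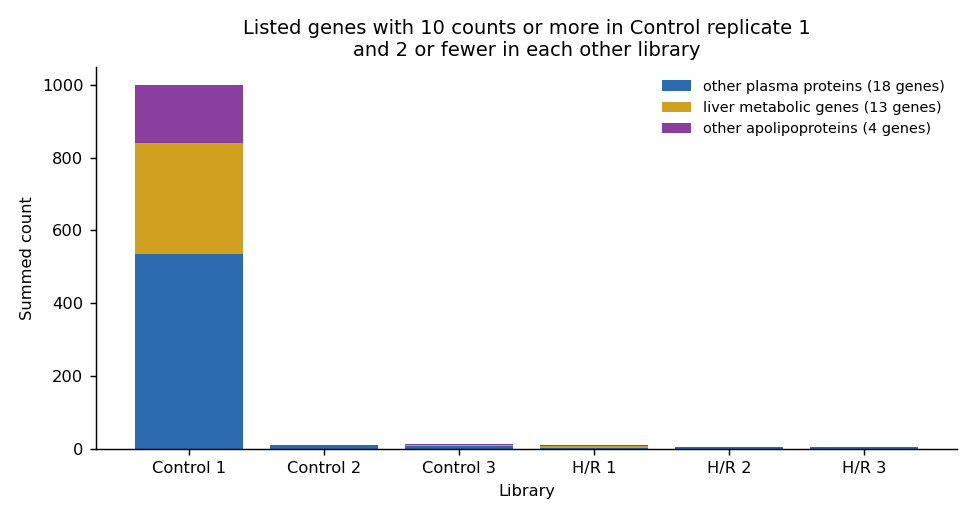
Summed counts (y axis, from 0) in each of the 6 libraries (x axis) of the listed genes that had 10 counts or more in control replicate 1 and 2 or fewer in each other library; colours separate 18 plasma protein, 13 liver metabolic and 4 apolipoprotein genes. The sums in control replicate 1 were 535, 306 and 159, and no other library exceeded 9, 6 and 3.

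Together the 10 genes took 0.0178% to 0.0235% of all counts in control libraries and 0.0130% to 0.0135% in H/R libraries. Of these genes Clu alone gave between 38.4% and 49.2% of the summed count in control cells and between 57.6% and 62.0% in H/R cells. Without Clu, their normalized counts summed to 2997, 1855 and 2306 in the control libraries and to 1243, 1089 and 1216 in the H/R libraries, always in the order of replicates 1 to 3. Thus 9 genes of the classical liver output made up a small share of the RNA of this line even at 21% oxygen. Their sum was lower in every H/R library than in any control library. The genes were picked with this contrast known, so nothing is read from that difference. In bulk RNA, fewer cells with a transcript and less transcript per cell cannot be told apart.

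Per kilobase, the order of the levels in control cells was Clu, Ttr, Trf, Apoa1, Alb, Apoe, Mttp, Apob, Apoh and Apom. Clu had an RPKM of 26.3 ± 0.788 (SD, n = 3) and ranked 2287 of the 25330 genes, and Ttr had 12.1 ± 4.66 (SD, n = 3). The RPKM ranges of neighbours overlapped from Trf (6.52 ± 0.809) through Apoa1 (6.09 ± 1.75) and Alb (5.82 ± 4.20) to Apoe (5.41 ± 3.34), so these 4 could not be ordered. Ttr was not fully apart from them. Its 7.062 in control replicate 2 lay below Apoa1 (7.145), Alb (10.59) and Apoe (9.267) in control replicate 1. Mttp (2.84 ± 0.0843), Apob (1.97 ± 0.271) and Apoh (1.502 ± 0.329) followed, each with all control libraries below the gene just before it in this order. Alb, however, had 2.681 in control replicate 2, below every control library of Mttp. Apom was near 0 (0.121 ± 0.171; SD, n = 3 throughout). Albumin mRNA, one of the most abundant transcripts of adult liver, ranked only 6558 in these control cells. In H/R cells Clu stayed first (22.8 ± 0.640 RPKM), Apoe (4.21 ± 0.581) and Apoa1 (2.85 ± 0.935) followed with overlapping ranges, and Ttr (1.32 ± 0.645) and Alb (0.756 ± 0.126) ranked 10939 and 12313 of all genes.

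Of the 10 genes, 9 had enough counts to enter the fit and Apom did not. Of these 9, 4 were called lower after H/R (Ttr, Alb, Trf and Apob) and 0 were called higher; of all genes tested, 4.27% were called lower and 4.25% higher (8.52% in either direction). The libraries of the 2 groups did not overlap for 6 of the 9 (Alb, Ttr, Trf, Apoa1, Apob and Clu), each lower after H/R, against 65.9% of all genes tested in either direction and 33.4% lower. The median log2 fold change of the 9 was -0.99, beside -0.01 for all genes tested. Because the genes were picked with this contrast known, nothing is read from these counts. Without control replicate 1, 3 of the 9 were called lower (Ttr, Alb and Trf), with 4.44% of all genes tested called lower, 4.37% higher and 8.81% in either direction. Their median was then -0.85 beside -0.01 for all genes tested. The groups of 6 of the 9 again did not overlap with H/R lower, and those of Apoe did not overlap with H/R higher, beside 36.0% and 34.5% of all genes tested (70.5% in either direction).

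**Figure D2:**
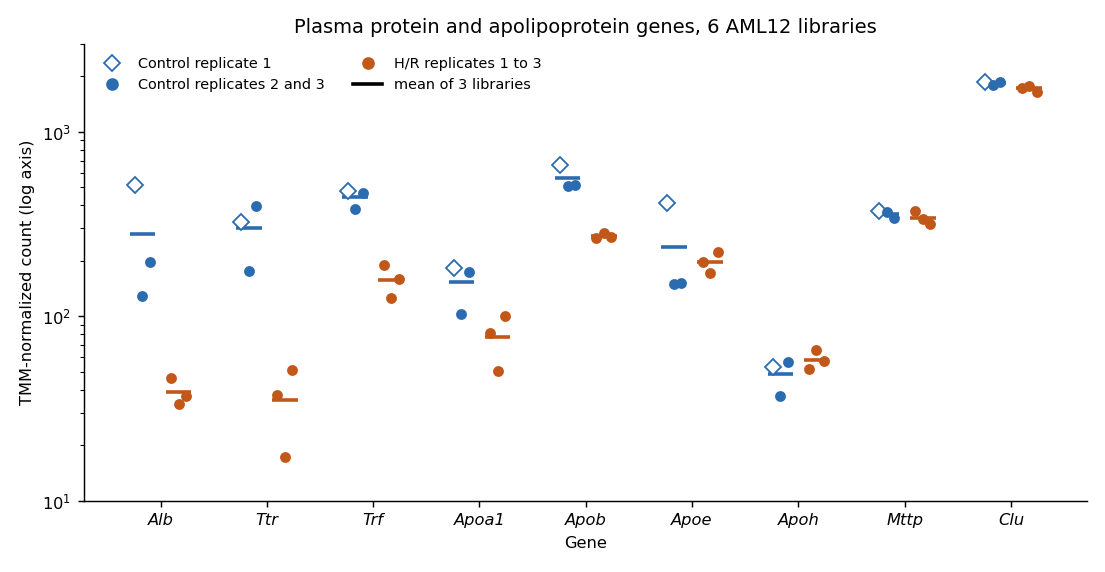
TMM-normalized count (y axis, log scale) of 9 genes (x axis) in each library; blue marks control libraries (open diamond, replicate 1), orange marks H/R libraries and horizontal bars are means of 3 libraries. Alb, Ttr, Trf, Apoa1 and Apob separate by group, Apoe is set apart by the open diamond at 410, and Mttp and Clu lie nearly level; Apom, with 7 counts or fewer, is not drawn.

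Alb lies on chromosome 5 of GRCm38 (90460897 to 90476602, plus strand, 16 merged exons) and shares no exon sequence with another gene. Its counts were 542, 132 and 209 in the control libraries and 43, 31 and 37 in the H/R libraries, again listed by replicate number. Its normalized count was 280 ± 205 in control and 38.9 ± 6.65 in H/R cells (SD, n = 3 each), so the control libraries varied far more than the H/R libraries, and the groups did not overlap. The log2 fold change was -2.85 (standard error 0.808), which is 7.19-fold lower. Control replicate 1 held 3.15 times the mean of the other 2 control libraries, and without it the log2 fold change was -2.07 (standard error 0.195), or 4.19-fold lower. Alb was called with all 6 libraries and without control replicate 1 or 2. It was not called without control replicate 3 (log2 fold change -3.05) or without H/R replicate 1, 2 or 3 (-2.98, -2.75 and -2.80), although the size of the difference stayed similar.

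Ttr, on chromosome 18 (20665250 to 20674324, plus strand, 4 exons), gave 344, 181 and 423 counts at 21% oxygen and 35, 16 and 51 counts after H/R. Here the highest control library was replicate 3, and control replicate 1 was only 1.13 times the mean of the other 2. The normalized count was 300 ± 113 in control and 35.3 ± 16.98 in H/R cells (SD, n = 3 each), without overlap. The log2 fold change was -3.07 (standard error 0.538) with all libraries and -3.01 (standard error 0.655) without control replicate 1, a difference of about the same size, 8.41-fold and 8.06-fold lower. Ttr was called in both and whichever 1 library was left out. Its log2 fold change was the most negative of the 9 genes with all 6 libraries. An antisense gene, Gm16090, overlaps 0.9% of its exon length and had between 264 and 325 counts in every library.

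Trf, on chromosome 9 (103204001 to 103230444, minus strand, 19 merged exons), had 503, 390 and 498 counts in control and 176, 117 and 159 in H/R libraries. Its normalized count was 442 ± 53.3 against 158 ± 31.7 (SD, n = 3 each), with a wide gap between the groups. The log2 fold change was -1.48 (standard error 0.120), and -1.42 (standard error 0.127) without control replicate 1. However, 63.5% of the exon length of Trf is shared with Gm20425, a same-strand gene that runs through the locus and had 771, 636 and 758 counts in control and 427, 366 and 472 in H/R libraries, so the reads of the pair cannot be assigned with certainty. The receptor that takes up iron-loaded transferrin, Tfrc, fell from 2610 ± 127 to 799 ± 61.0 normalized counts (SD, n = 3 each; log2 fold change -1.71, standard error 0.0542, edgeR adjusted p = 1.13e-23).

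**Figure D3:**
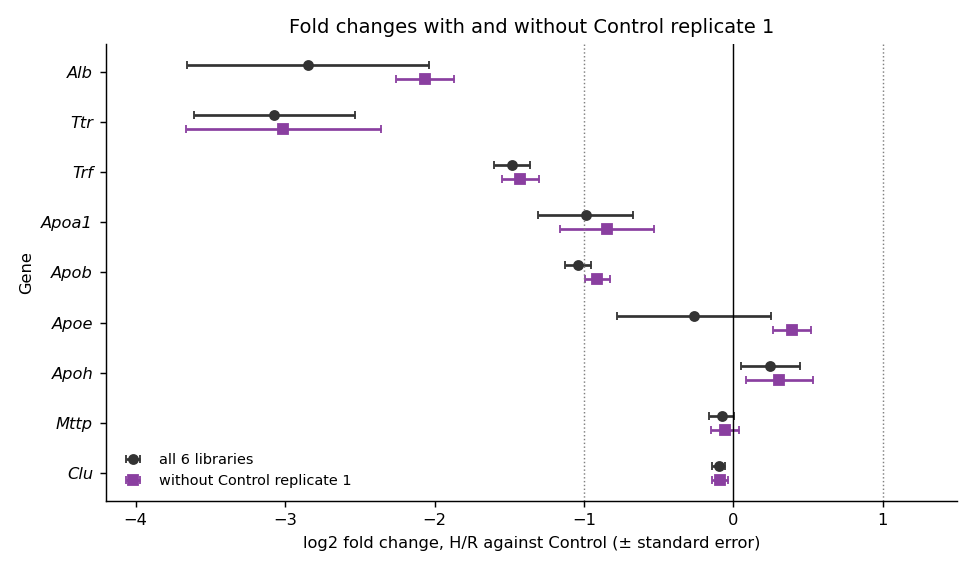
Log2 fold change of H/R against control (x axis, bars are ± 1 standard error) for 9 genes (y axis), with all 6 libraries (circles) and without control replicate 1 (squares); dotted lines mark 2-fold. Ttr and Trf hardly moved between the fits, Alb moved from -2.85 to -2.07, and Apoe moved from -0.26 to 0.39.

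Apoa1, on chromosome 9 (46228580 to 46230466, plus strand, 3 merged exons, no exon shared), had 193, 106 and 186 counts in control and 75, 47 and 100 in H/R libraries. The highest H/R library (99.9 normalized counts) was just below the lowest control library (103), so the groups were separate by a narrow margin. The normalized count was 154 ± 43.8 in control and 77.1 ± 24.8 in H/R cells (SD, n = 3 each). The log2 fold change was -0.99 (standard error 0.320), marginally short of 2-fold, and -0.85 (standard error 0.314) without control replicate 1. Apoa1 was called without control replicate 2 (-1.21) and without H/R replicate 3 (-1.22), and in no other fit with 1 library left out.

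Apob, on chromosome 12 (7977648 to 8016835, plus strand, 29 exons, no exon shared), had 696, 524 and 549 counts in control and 247, 264 and 270 counts in H/R libraries. The normalized count was 562 ± 83.8 and 274 ± 9.89 (SD, n = 3 each), and the highest H/R library stayed far below the lowest control library. Its log2 fold change was -1.04 (standard error 0.0899). Without control replicate 1, which was 1.28 times the mean of the other 2, it was -0.91 (standard error 0.0848), or 1.88-fold lower, which is under the 2-fold threshold. By contrast Mttp, whose product lipidates apolipoprotein B, had 392, 377 and 363 counts in control and 344, 313 and 317 counts in H/R libraries. Its normalized count was 360 ± 16.1 and 342 ± 27.1 (SD, n = 3 each), the groups overlapped, and its log2 fold change was -0.08 (standard error 0.0823) and -0.06 (standard error 0.0918) without control replicate 1. Mttp lies on chromosome 3 (138089854 to 138144968, minus strand), and exons of Trmt10a and Gm43691 cover 9.49% of its exon length.

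Promoter sequences of RefSeq (GRCm38.p6) were matched to 7 of the 10 genes, and those of Alb, Apoa1, Apob and Mttp were taken for display. Alb, Apoa1 and Apob were lower in every H/R library than in every control library, by different amounts (log2 fold changes -2.85, -0.99 and -1.04). Mttp (-0.08) is not shown, because too few bases of its window lay outside exons. The stretches of Alb, Apoa1 and Apob are given below. Each runs 5′ to 3′ toward the annotated start and leaves out bases that the deposited tables count as exon, which is why the Apoa1 and Apob stretches end 51 and 30 bases upstream of the start. The start used for all distances is that of RefSeq. For Alb it follows base 90460869 and lies upstream of the start of the counted gene at 90460897. Capitals mark matches, on either strand, to the HNF4 site CAAAGTC, the CCAAT box, the FOXA site TGTTTNC and the TATA box TATAAA.
Alb (chr5:90460620-90460869, plus strand): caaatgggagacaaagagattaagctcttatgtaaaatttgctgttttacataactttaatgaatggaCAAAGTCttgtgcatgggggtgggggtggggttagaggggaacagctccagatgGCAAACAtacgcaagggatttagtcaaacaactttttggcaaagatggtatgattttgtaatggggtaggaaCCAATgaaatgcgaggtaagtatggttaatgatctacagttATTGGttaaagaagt
Apoa1 (chr9:46228380-46228579, plus strand): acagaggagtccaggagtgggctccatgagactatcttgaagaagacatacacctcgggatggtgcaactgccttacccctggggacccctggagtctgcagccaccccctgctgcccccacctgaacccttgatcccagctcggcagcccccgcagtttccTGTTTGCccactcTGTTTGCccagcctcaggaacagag
Apob (chr12:7977427-7977647, plus strand): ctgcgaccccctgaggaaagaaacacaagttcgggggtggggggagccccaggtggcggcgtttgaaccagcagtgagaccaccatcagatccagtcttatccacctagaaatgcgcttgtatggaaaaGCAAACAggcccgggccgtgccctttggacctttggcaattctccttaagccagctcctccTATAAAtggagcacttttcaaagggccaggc
In Alb the matches were to HNF4 (182 to 176 bases upstream), FOXA (128 to 122) and the CCAAT box (56 to 52 and 15 to 11). Apoa1 had 2 FOXA matches in the form TGTTTGC, 88 to 82 and 75 to 69 bases upstream, and Apob had a FOXA match at 121 to 115 and a TATA box at 60 to 55. Over the 250 bases upstream of the start, the FOXA letters occurred in 5 of the 7 genes (Alb, Apoa1, Apob, Apoh and Apom) and in 17.8% of all 32851 promoters. The HNF4 letters occurred in 1 (Alb; 3.84%), the CCAAT box in 1 (Alb; 33.8%) and the TATA box in 2 (Apob and Apoe; 12.4%). The letters ACGTG, a form of the hypoxia response element core, were in 0 of the 7 windows and in 16.6% of all promoters. Other forms of this core were not searched. A match is a description of the letters and shows no binding. Only these letters were searched, so a site with other letters was not counted, and a gene without a match may still hold one.

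Apoe encodes the ligand by which remnant lipoproteins are taken up through the low density lipoprotein receptor family. It lies on chromosome 7 (19696109 to 19699188, minus strand, 5 merged exons, no exon shared). Its counts were 433, 154 and 161 at 21% oxygen and 182, 160 and 224 after H/R. On the normalized scale control replicate 1 was the highest of the 6 libraries and the other 2 control libraries were the lowest. With all libraries the normalized count was 237 ± 150 in control and 198 ± 25.7 in H/R cells (SD, n = 3 each), and the log2 fold change was -0.26 (standard error 0.516). Without control replicate 1 it was 0.39 (standard error 0.127), and the 3 H/R libraries (173 to 224) lay above both remaining controls (150 and 152). The sign of the Apoe difference thus rests on 1 library. Normalized counts in control replicate 1 exceeded the mean of the other 2 controls by 259 for Apoe, 350 for Alb, 145 for Apob, 51.6 for Trf, 43.5 for Apoa1, 38.3 for Ttr, 34.4 for Clu, 16.4 for Mttp and 6.25 for Apoh. For the abundant Clu this was only 1.02 times the mean of the other 2 controls. The share of the liver transcripts of control replicate 1 in these excesses was not tested.

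Apoh encodes beta-2-glycoprotein I, a plasma protein that binds anionic phospholipids. It had 56, 38 and 60 counts in control and 48, 61 and 57 counts in H/R libraries. The groups overlapped, the normalized count was 48.9 ± 10.4 and 58.2 ± 7.12 (SD, n = 3 each), and the log2 fold change was 0.25 (standard error 0.198), or 0.31 (standard error 0.224) without control replicate 1. It was the only 1 of the 9 with a positive log2 fold change in all 6 libraries. Its locus is on chromosome 11 (108343354 to 108414396, plus strand), and Prkca on the other strand covers 1.88% of its exon length. Apom, which encodes the sphingosine-1-phosphate carrier of high density lipoprotein, lies on chromosome 17 (35128997 to 35132050, minus strand). It had 7, 0 and 1 counts in control and 4, 1 and 2 counts in H/R libraries, too few to compare.

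Clu encodes clusterin, an extracellular chaperone also known as apolipoprotein J, and lies on chromosome 14 (65968483 to 65981548, plus strand, 14 merged exons, no exon shared). It had 1973, 1844 and 1985 counts in control and 1617, 1645 and 1655 counts in H/R libraries. On the normalized scale these were 1845 ± 40.4 and 1723 ± 62.3 (SD, n = 3 each), with the highest H/R library (1774) just under the lowest control library (1798). The log2 fold change was -0.10 (standard error 0.0466), and -0.09 (standard error 0.0522) without control replicate 1. The scaling bears on a difference of this size: scaled by library totals alone, the log2 fold change of Clu was -0.20 and that of Mttp -0.18, while the median of all genes moved from -0.01 to -0.12.

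Replicates were ranked within each group for the 9 genes. Control replicate 2 was the lowest control library for 8 of the 9 (all but Mttp), and control replicate 1 was the highest for 6 (Alb, Trf, Apoa1, Apoe, Apob and Mttp). H/R replicate 2 was the lowest H/R library for 5 (Alb, Ttr, Trf, Apoa1 and Apoe), while each H/R replicate was the highest for 3. Among other tested genes with a mean normalized count of at least 50, the patterns most like that of Ttr over the 6 libraries were those of Ugt1a8, Ugt1a1 and Ugt1a5 (Pearson r = 0.998, 0.998 and 0.997 on log2 normalized counts). These UDP-glucuronosyltransferase genes share exons with each other and differed less between the groups, with log2 fold changes of -0.37, -0.37 and -0.37. For Apoh they were Nfkbil1, Ndufa3 and Dstyk (r = 0.994, 0.987 and 0.987), and for Mttp they were Nono, Morf4l1 and Spag7 (r = 0.978, 0.977 and 0.969). With 6 libraries in 2 groups these values are descriptions.

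Alb, Apoa1 and Apoe each sit in a cluster of related genes, and the neighbours were compared next. Alb lies beside Afp, which encodes alpha-fetoprotein, the fetal counterpart of albumin. Afp had 47, 47 and 38 counts in control and 8, 13 and 8 counts in H/R libraries, fell by 2.03 on the log2 scale (standard error 0.298, edgeR adjusted p = 3.38e-07) and by 1.99 without control replicate 1 (adjusted p = 5.53e-06). In control replicate 1 the normalized count of Afp was 1.09 times the mean of the other 2 control libraries, where that of Alb was 3.15 times. Afm (afamin) had 9, 12 and 10 counts in control and 2, 0 and 0 in H/R libraries, and Gc, for the vitamin D-binding protein, had 45, 11 and 8 against 3, 1 and 2; both were too low for the test. Gc resembled Alb in its excess in control replicate 1. The unrelated flanking genes Rassf6 and Ankrd17 had log2 fold changes of -0.62 (adjusted p = 6.97e-13) and 0.09 (adjusted p = 0.0461), the sign of the latter changing with library totals and on log2(RPKM + 1) and log2(RPKM + 0.1). Ankrd17 also missed the threshold without control replicate 1 (adjusted p = 0.114).

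Around Apoa1, the other 3 apolipoprotein genes of the chromosome 9 cluster were nearly silent outside control replicate 1. Apoa4, of which 69.8% of the exon length is shared with other genes, had 66, 2 and 2 counts in control and 0 in each H/R library, Apoa5 had 18, 1 and 1 against 0, and Apoc3 had 7, 2 and 0 against 0. Apoa1 had at least 47 counts in every library. The flanking genes Sik3 and Zpr1 rose, by log2 fold changes of 0.83 (adjusted p = 8.61e-17) and 0.28 (adjusted p = 2.25e-06), whereas Apoa1 was lower in each H/R library.

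In the chromosome 7 cluster Apoe was accompanied by Apoc2, for the cofactor of lipoprotein lipase. Apoc2 had 94, 57 and 97 counts in control and 8, 6 and 14 in H/R libraries, and fell by 2.99 on the log2 scale (standard error 0.280, edgeR adjusted p = 3.9e-11) and by 2.89 without control replicate 1 (adjusted p = 1.65e-09). The groups of its neighbour Apoe overlapped with all 6 libraries, and the difference between the 2 genes was not tested. Gm44805, a same-strand gene spanning Apoc4 and Apoc2, covers 79.5% of the exon length of Apoc2 and had nearly the same counts (100, 62 and 102 against 9, 6 and 14), so which of the overlapping genes the reads belong to is uncertain. Apoc4 had 7, 5 and 9 counts in control and 1, 2 and 0 in H/R libraries, and Apoc1 had 15, 0 and 0 against 1, 0 and 0. Of the flanking genes, Tomm40 fell (log2 fold change -0.70, adjusted p = 1.79e-10) and Nectin2 rose (0.36, adjusted p = 0.000328), as did Clptm1 (0.16, adjusted p = 0.00179), which missed the threshold with upper quartile scaling (0.09, adjusted p = 0.0703) and library totals (0.06, adjusted p = 0.278).

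**Figure D4:**
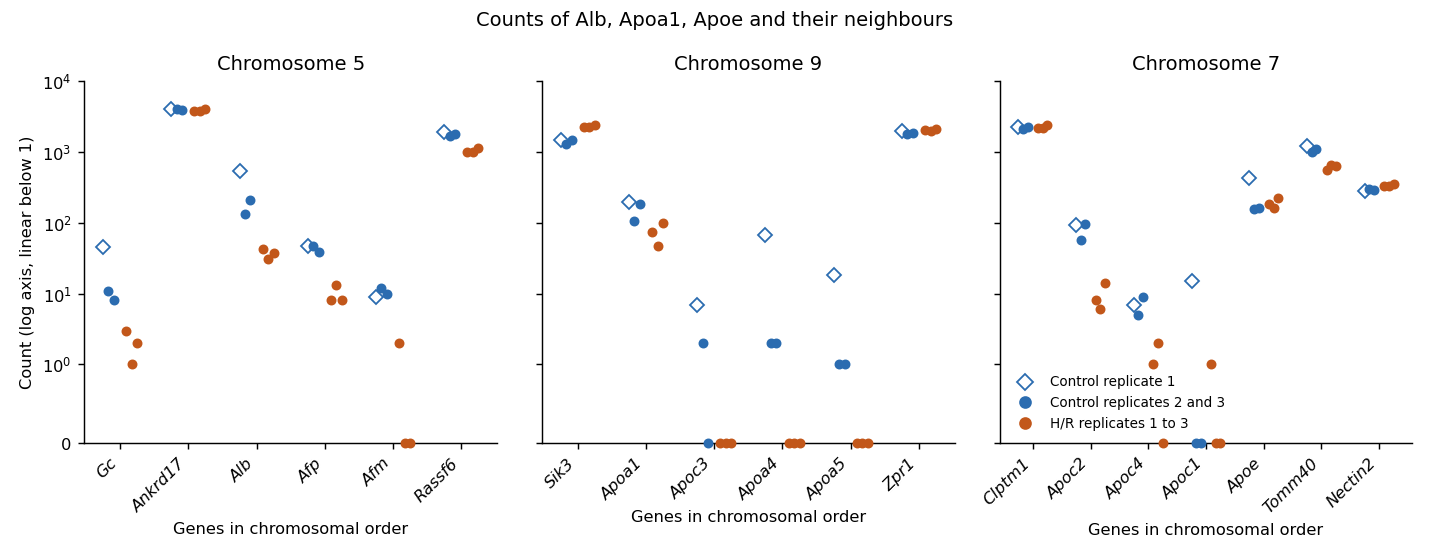
Counts (y axis, log scale, linear below 1) in each library of Alb, Apoa1, Apoe and their neighbours, in chromosomal order within each panel (x axis); open diamonds are control replicate 1, blue dots control replicates 2 and 3, orange dots H/R libraries. Apoa4, Apoa5 and Apoc1 stand at 66, 18 and 15 counts in control replicate 1 and at 2 or fewer elsewhere, while Afp and Apoc2 are lower in each H/R library than in each control library.

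The remaining genes of the pathway were taken from lists by function. Of 9 other apolipoprotein genes, 3 could be tested, of which 2 fell (Apoc2 and Apon) and 0 rose at an adjusted p under 0.05, shares to be read beside 31.8% and 31.0% of all genes tested. Their median log2 fold change was -0.63. With control replicate 1 left out, Apon (log2 fold change -0.51) missed the threshold (adjusted p = 0.051), which left Apoc2.

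Of 23 genes of lipoprotein assembly and secretion, 20 were tested, 5 fell and 8 rose at an adjusted p under 0.05 (31.8% and 31.0% of all genes tested), and their median log2 fold change was 0.01. Of these, 1 was called lower and 2 higher, beside 4.27% and 4.25% of all genes tested. Without control replicate 1, 4 of 21 fell and 7 rose, beside 29.4% and 29.0% of all genes, with the same numbers called. The 2 called higher have wider roles than lipoprotein export. Hspa5, the main chaperone of the endoplasmic reticulum, rose from 14590 ± 235 to 35800 ± 1400 normalized counts (SD, n = 3 each; log2 fold change 1.30, adjusted p = 1.13e-22). Soat1, which esterifies cholesterol, rose from 543 ± 35.6 to 1089 ± 42.5 (SD, n = 3 each; log2 fold change 1.00, adjusted p = 2.39e-16), and lay just under 2-fold without control replicate 2 or 3 or without H/R replicate 1 or 2, and with upper quartile scaling or library totals. Another gene, Cideb, a lipid droplet protein that promotes maturation of very low density lipoprotein, was called lower (log2 fold change -1.06, adjusted p = 5.46e-05), but 76.4% of its exon length overlaps Nop9, and it was not called without control replicate 3 or H/R replicate 1. It was named after its values were seen.

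Of 27 genes of lipoprotein remodelling and receptors, 16 were tested, 5 fell and 6 rose, beside the same 31.8% and 31.0% of all genes, with a median log2 fold change of 0.08. Of these, 3 were called lower and 1 higher (4.27% and 4.25% of all genes). These numbers were the same without control replicate 1, where the median was 0.12. Besides Tfrc, 2 of them fell at least 2-fold. Lrp8, the apolipoprotein E receptor 2, went from 1647 ± 94.7 to 652 ± 5.02 normalized counts (SD, n = 3 each; log2 fold change -1.34, adjusted p = 6.02e-21). Scarb1, the receptor for high density lipoprotein, went from 75.9 ± 6.68 to 32.5 ± 3.96 (SD, n = 3 each; log2 fold change -1.22, adjusted p = 1.58e-06). Lpl, the lipase that hydrolyses lipoprotein triglyceride, rose from 50.3 ± 0.416 to 133 ± 3.71 (SD, n = 3 each; log2 fold change 1.41, adjusted p = 3.34e-10). These 4 calls were made again whichever 1 library was left out.

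Of 93 other plasma protein genes, 63 had too few counts for the test, and 23 of the 93 were at 3 counts or fewer in every library. Of the 30 tested, 11 fell and 11 rose at an adjusted p under 0.05, 6 were called lower and 2 higher, and the median log2 fold change was -0.09, beside 31.8%, 31.0%, 4.27% and 4.25% of all genes tested. Without control replicate 1, 9 fell, 11 rose, 5 were called lower and 2 higher, and the median was 0.01. Beside Afp, Proc, the zymogen of the anticoagulant protein C, fell from 172 ± 7.13 to 73.8 ± 10.8 normalized counts (SD, n = 3 each; log2 fold change -1.22, adjusted p = 8.2e-10). The other 4 genes called lower had a mean normalized count below 50. In the opposite direction the acute phase gene Orm1, for orosomucoid, rose from 1272 ± 14.3 to 2729 ± 118 (SD, n = 3 each; log2 fold change 1.10, adjusted p = 1.52e-20), just under 2-fold with library totals.

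Of 23 liver transcription factors and coregulators, 19 were tested, 8 fell and 5 rose (31.8% and 31.0% of all genes tested), with a median log2 fold change of -0.11. Without control replicate 1, 7 fell and 5 rose, with a median of -0.05. At 2-fold, 0 were called lower by edgeR or DESeq2 with all 6 libraries (1 with library totals, Onecut1), while 2 were called higher, beside 4.27% and 4.25% of all genes. Ppargc1a, a coactivator of mitochondrial and fasting genes, rose from 34.1 ± 1.77 to 98.5 ± 5.33 normalized counts (SD, n = 3 each; log2 fold change 1.53, adjusted p = 3.04e-09). Hnf4a had 2973, 2973 and 3209 counts in control and 2043, 2035 and 2166 in H/R libraries, and fell by 0.41 on the log2 scale (adjusted p = 4.15e-10). The tested FOXA and C/EBP genes, named after their values were seen, went both ways. Log2 fold changes were 0.20 for Foxa2 (standard error 0.0494), 0.40 for Foxa3 (0.269), -0.85 for Cebpa (0.346), -0.15 for Cebpb (0.224) and 0.19 for Cebpd (0.160). A link between these factors and the plasma protein genes was not tested.

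**Figure D5:**
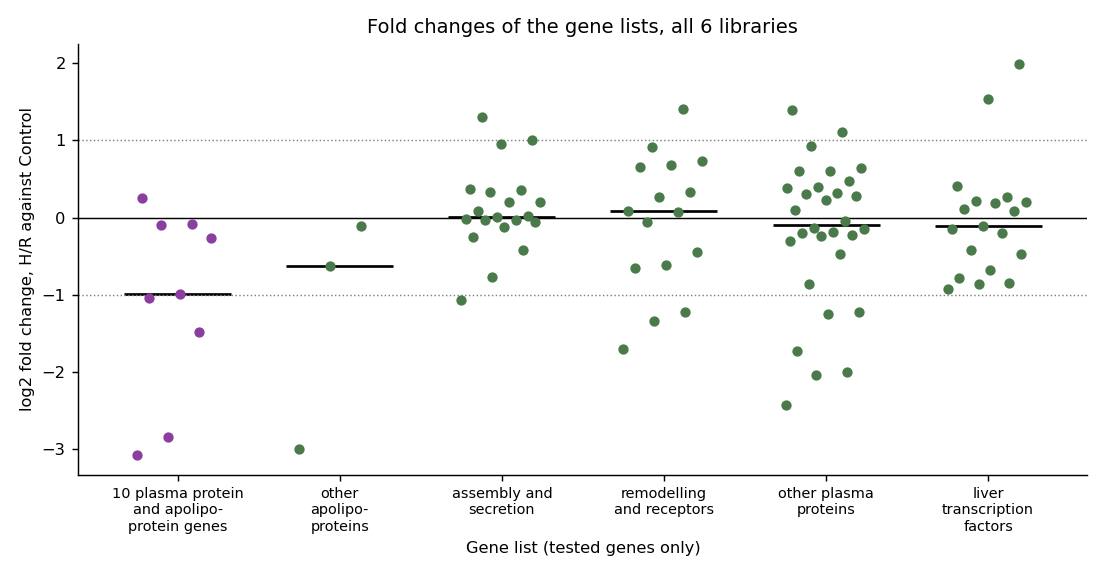
Log2 fold change of H/R against control (y axis, all 6 libraries) of each tested gene in 6 lists (x axis); each point is 1 gene, black bars are medians and dotted lines mark 2-fold. The 10 plasma protein and apolipoprotein genes, of which 9 are drawn, have a median of -0.99 and were picked with these values known, the other apolipoproteins, of which 3 are drawn, have a median of -0.63, and the medians of assembly and secretion, remodelling and receptors, other plasma proteins and transcription factors lie between -0.11 and 0.08.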

How the data were processed

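RNA-seq was measured in 6 AML12 libraries, 3 control and 3 H/R, grouped by the sample titles. Per the labels and the methods of the study, the authors prepared stranded mRNA libraries, trimmed paired-end reads with Trimmomatic 0.36, mapped them to GRCm38 and counted them per gene with featureCounts of Subread 1.5.1; the strand setting is not given in the sources used here. Deposited counts are unnormalized whole numbers, and the RPKM deposited by the authors follow from count, length and library total (largest relative error 1.13e-06).

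Counts were analysed with edgeR 4.0.16 (filterByExpr, TMM, estimateDisp, robust glmQLFit, glmQLFTest) in R 4.3.3, with Benjamini-Hochberg adjustment over 14020 genes; standard errors follow from the F statistic. The alternatives used DESeq2 1.42.0, other scalings and filters, limma 3.58.1 on log2(RPKM + 1) and log2(RPKM + 0.1), a replicate block, and each library left out. Normalized counts are counts per effective library size times the mean effective library size; similarity used log2(normalized count + 0.5). The genes and lists were chosen with earlier results of these data known. Named genes are the 10 genes, their cluster neighbours, at most 4 called genes per direction and list with a mean count of at least 50, the 5 metabolic and 5 plasma protein genes highest in control replicate 1 alone (1 of these metabolic genes is not reported here), the 3 most similar genes of the most lowered, most raised and least changed gene, and markers.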

Additional observations from a re-analysis of the deposited data

How the results depend on the processing

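With every library, 4 of the 10 genes (9 tested in the main fit) were called, and 3 to 5 under all settings, each time lower. Alb was lost with no filter on low counts, Apob on log2(RPKM + 1), and Apoa1 was gained with upper quartile scaling, library totals and log2(RPKM + 0.1). Among all genes called, 599 of 1195 were lower in the main fit. Where Apoa1 was gained, these were 734 of 1250, 810 of 1286 and 575 of 983. With no filter they were 820 of 1521, with a replicate block 603 of 1200 and with DESeq2 547 of 1164. With at least 10 counts in every library they were 425 of 882, and on log2(RPKM + 1) 184 of 406. Nothing is read from the calls of the 10 genes, which were picked with this contrast known. With 1 library left out the numbers called lay between 3 and 5 for the 10 genes, 1211 and 1290 for all genes (1195 with every library), 1 and 1 for other apolipoproteins, 1 and 3 for assembly and secretion, 4 and 4 for remodelling and receptors, 7 and 10 for other plasma proteins (8 with every library), and 2 and 3 for transcription factors. On log2(RPKM + 1), which shrinks the changes of low genes, 406 genes were called, and 1 of assembly and secretion, 2 of remodelling and receptors, 1 of other plasma proteins and 0 of the transcription factors (at an adjusted p under 0.05 by limma). With no filter 5 other apolipoproteins and 29 other plasma proteins were called, since more genes were tested; of the 4 and 21 genes gained, 3 and 19 had more counts in control replicate 1 than in the other 5 libraries together. With at least 10 counts in every library, which left fewer genes to test, 0, 2 and 1 of other apolipoproteins, other plasma proteins and transcription factors were called. DESeq2 called 2 other apolipoproteins. The share of higher genes among those called was 49.9%, and 37.0% with library totals.

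Libraries of the same replicate number did not deviate together (correlations of deviations from the group means -0.03, 0.00 and -0.01). A replicate block called 1200 genes, 4 of the 10 genes among them, and changed no list's number called.

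The log2 fold changes of Ankrd17 and Nfkbil1 changed sign: Ankrd17 had -0.0103 (library totals), -0.00833 (log2(RPKM + 1)) and -0.00970 (log2(RPKM + 0.1)), and Nfkbil1 had -0.0369 with upper quartile scaling and -0.0714, -0.0627 and -0.0696 in the same order, settings that move the median of all genes. Apom and 63 of the other plasma protein genes had too few counts to be tested.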
